A study of Mus musculus with 12 samples.

Results

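The genes described here encode the proteasome, its activators and the factors that assemble it. They were taken by symbol from the expression tables: 48 of 37991 gene records carried a mouse symbol that starts with Psm, followed by a letter from a to g and a number, lay on chromosomes 1 to 19 and were annotated as protein coding, with Psmb8 and Psmb9 left out by the rule. The 48 records have 47 symbols, since Psmd14 has a second record (ENSMUSG00000090649). Psmd10 lies on the X chromosome and was not taken. Expression was measured by mRNA-seq in retinas of male mice aged 8 weeks, in 12 libraries that each pooled 6 to 8 retinas. The parental (F0) groups were C57BL/6J and Cast/EiJ, both inbred strains, and the hybrid (F1) groups were F1 B6xCast, with a C57BL/6J father and a Cast/EiJ mother, and the reciprocal F1 CastxB6, with a Cast/EiJ father and a C57BL/6J mother. Each group had 3 libraries, and the labels give no treatment or engineered allele for any of them. P-values measure the spread between these pools.

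The 26S proteasome degrades proteins that carry ubiquitin chains. Its 20S core is a stack of rings of alpha subunits (Psma genes) around rings of beta subunits (Psmb genes), and the catalytic sites lie in Psmb5, Psmb6 and Psmb7. The 19S regulatory particle binds ubiquitin, removes it and threads the substrate into the core with a ring of ATPases (Psmc genes) and a set of non-ATPase subunits (most Psmd genes). Each subunit is present in equal copy number within its particle, which is why the dosage of its genes is of interest. The F0 comparison gives the strain difference. In an F1 library both alleles share the same cells, so the difference between the Cast/EiJ and the C57BL/6J allele gives the part that acts in cis, and the F0 difference minus the allelic difference gives the part that acts in trans.

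By role the 48 records were 7 alpha and 7 beta subunits of the core, 6 ATPases and 12 non-ATPase records of the 19S particle, the 19S assembly chaperones Psmd5 and Psmd9, the activators Psme1 to Psme4, the inhibitor Psmf1, the core assembly chaperones Psmg1 to Psmg4, and the tissue-restricted core subunits Psma8 (testis), Psmb10 (immunoproteasome) and Psmb11 (thymus). A further 2 matched by name only, Psmc3ip, a factor of meiotic recombination, and Psme2b-ps, a copy of Psme2. Psma8, Psmb11, Psme2b-ps and the second Psmd14 record fell below the filters on low values, and 44 of the 48 records were tested in each comparison.

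Unique hits, the read pairs that fit a single gene (and in F1 a single allele of it), numbered 8158534 to 12363291 per library. Rod markers were the most abundant of the cell type markers checked, with a summed level over 8 of 8 genes of 16984 to 17337 FPKM in F0 C57BL/6J and 18251 to 19157 in F0 Cast/EiJ. Bipolar cell markers (4 of 4, 170 to 195 and 172 to 191 FPKM) and lens markers (5 of 5, 0.424 to 10.4 and 4.08 to 11.6 FPKM) overlapped between the strains. Those of rods, pigment epithelium, leukocytes, cones and blood did not. Retinal pigment epithelium markers (5 of 5 genes measured) summed to 8.87 to 10.9 FPKM in F0 C57BL/6J and 2.59 to 3.79 in F0 Cast/EiJ, where Best1 stayed under 0.1 in every library. Microglia and leukocyte markers (7 of 7 measured) summed to 7.55 to 8.43 FPKM in F0 C57BL/6J and 3.88 to 4.55 in F0 Cast/EiJ, with Ptprc under 0.1 in every library. Cone markers (5 of 5) summed to 402 to 476 FPKM against 294 to 353, and blood markers (5 of 5) to 76.0 to 115 against 35.5 to 58.0, where Hbb-b2 was under 0.1 in F0 Cast/EiJ. Mueller glia markers (4 of 4) summed to 856 to 1038 FPKM against 783 to 890 and overlapped. The part of these cells in the F0 differences was not tested. Between groups of bulk libraries, fewer cells of a type and less RNA per cell cannot be told apart.

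The core and 19S subunits had median levels of 15.7 FPKM or more in retina, and the assembly factors lay lower. Levels between genes were compared per transcript length, in FPKM, as the median over the 12 libraries. The beta subunits were the tightest group, from 43.4 FPKM for Psmb5 to 65.2 for Psmb6, a 1.5-fold range. The alpha subunits ran from 15.7 FPKM for Psma2 to 54.7 for Psma7, a 3.48-fold range, although every alpha subunit occurs in the same number in the core. The 19S ATPases ran from 21.6 FPKM for Psmc6 to 61.6 for Psmc3.

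Among the 19S non-ATPase subunits, Psmd4, a ubiquitin receptor, had the highest level (61.0 FPKM), followed by Psmd2 (45.9 FPKM), a scaffold that holds other ubiquitin-binding factors. Psmd6 (17.5 FPKM) and Psmd12 (17.7 FPKM) had the lowest. By these medians the assembly factors were less abundant than any of the 31 core and 19S subunits taken by the rule. They had 5.86 FPKM for Psmd9, 7.42 for Psmg3, 8.63 for Psmg1, 10.1 for Psmg2, 11.5 for Psmg4 and 11.7 for Psmd5. Of the activators, Psme3, which forms the nuclear PA28 gamma ring, had 26.1 FPKM and Psme4 (PA200) 10.3 FPKM.

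**Figure D1:**
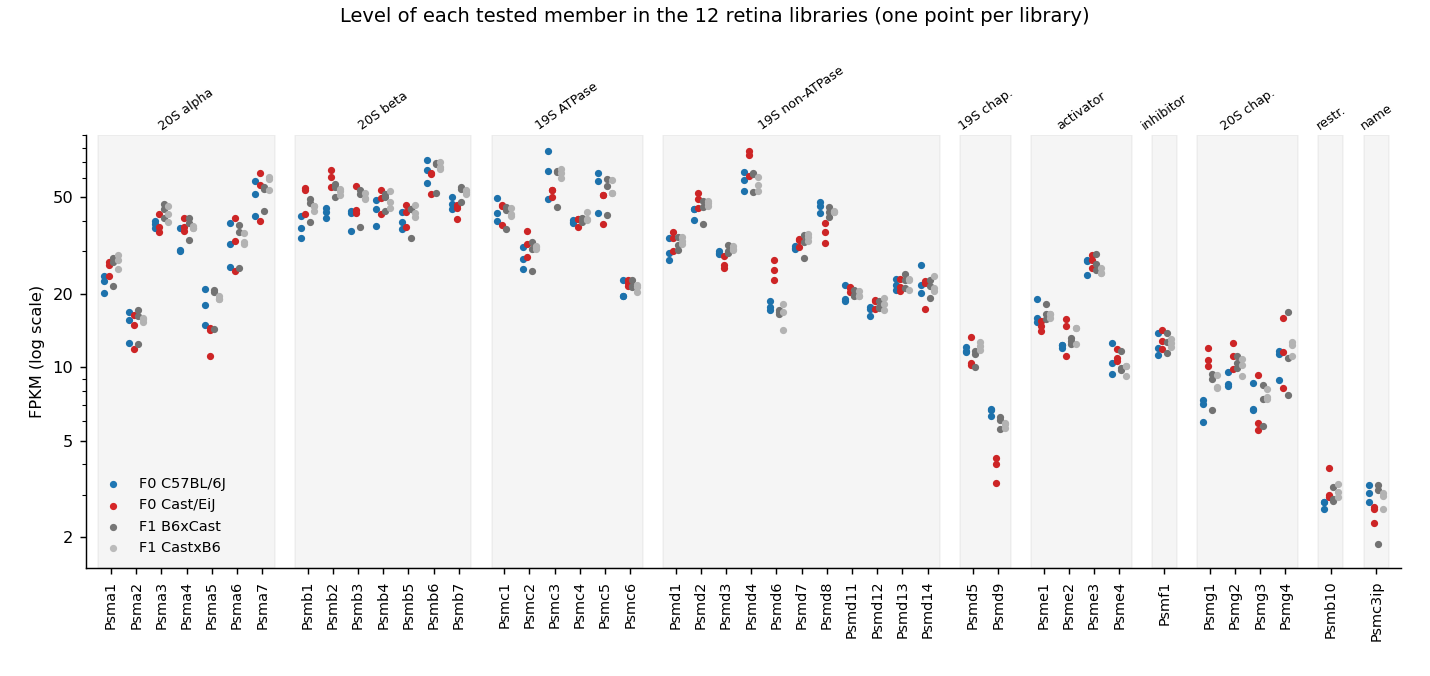
The level of the 44 tested members in FPKM (log axis), with 1 point per library, coloured by group, and members ordered by role (chap., assembly chaperone; restr., tissue-restricted core subunit; name, matched by name only). Beta subunits lie in a narrow band between 43.4 and 65.2 FPKM (medians), and the median of each assembly chaperone, at most 11.7 FPKM, lies below the lowest median of a core or 19S subunit, 15.7 FPKM, although single libraries of Psmg4 reach 16.9 FPKM.

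The mRNA levels of the subunits were unequal in every library. Over the 14 core subunits, the SD of log2 FPKM was 0.57 to 0.64 in F0 C57BL/6J, 0.67 to 0.73 in F0 Cast/EiJ, 0.58 to 0.65 in F1 B6xCast and 0.58 to 0.61 in F1 CastxB6, and the highest subunit exceeded the lowest 3.98- to 4.98-fold. The 3 F0 Cast/EiJ libraries had a wider spread than the other 9. This difference was not tested, and it takes in Psma5, which was the lowest core subunit in each of those 3 libraries and shares reads with a copy. The rule took 17 subunits of the 19S particle and left out Adrm1 and Shfm1. Over these 17 the SD of log2 FPKM was 0.52 to 0.66 and the highest exceeded the lowest 3.06- to 4.44-fold, with overlapping groups.

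Between the strains, 6 of the 44 tested members differed. Among all 14452 genes tested, 33.8% were called, against 13.6% of the members. Of the 6, 4 were higher in Cast/EiJ (17.2% of all genes) and 2 lower (16.6%). The median size of the F0 difference, on the log2 scale and without its sign, was 0.14 for the members and 0.26 over all genes. The calls fell in 2 of 7 beta subunits, 2 of 11 tested non-ATPase subunits, 1 of the pair of 19S chaperones and 1 of 4 core chaperones. None of the 7 alpha subunits, 6 ATPases or 4 activators passed the test. Fold changes are on the scale of log2(count equivalents + 1), the count equivalents being the authors' normalized read counts per gene.

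The largest decrease in Cast/EiJ was that of Psmd9 (chromosome 5, 123678199 to 123700140, NCBI37/mm9), a chaperone that helps to build the ATPase ring. Its count equivalents were 306, 325 and 326 in F0 C57BL/6J and 202, 162 and 195 in F0 Cast/EiJ. The groups did not overlap, and the level was 1.72-fold lower in Cast/EiJ (log2 -0.78 ± 0.12 SE, limma adjusted p = 0.00102). Psmd8 (chromosome 7, 29959207 to 29965692), a subunit of the 19S lid, was lower as well. It had 1250, 1170 and 1290 count equivalents in F0 C57BL/6J and 1060, 884 and 985 in F0 Cast/EiJ, again without overlap. The difference was 1.27-fold (log2 -0.34 ± 0.09 SE, limma adjusted p = 0.0141), and the call was lost without C57BL/6J replicate 3 or Cast/EiJ replicate 2, with limma adjusted p of 0.0514 and 0.051, and without a filter on low values (0.0803).

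The largest increase was that of Psmg1 (chromosome 16, 96201540 to 96212567), which pairs with Psmg2 to assemble the alpha ring. Psmg1 had 124, 106 and 121 count equivalents in F0 C57BL/6J and 178, 190 and 216 in F0 Cast/EiJ, a 1.66-fold difference (log2 0.73 ± 0.13 SE, limma adjusted p = 0.00301). The lowest Cast/EiJ library lay above the highest C57BL/6J library. Psmb2 (chromosome 4, 126354874 to 126386958) and Psmb1 (chromosome 17, 15612685 to 15635240) are non-catalytic beta subunits. Psmb2 had 641, 618 and 572 count equivalents in F0 C57BL/6J and 780, 918 and 871 in F0 Cast/EiJ, so that all Cast/EiJ libraries were higher (log2 0.49 ± 0.09 SE, limma adjusted p = 0.0031). Psmb1 had 607, 670 and 736 against 757, 969 and 961, 1.33-fold higher (log2 0.41 ± 0.12 SE, limma adjusted p = 0.0241). Neither pair of groups overlapped. The call of Psmb1 was lost without C57BL/6J replicate 1 or 2 or Cast/EiJ replicate 2 or 3, with limma adjusted p of 0.0608 to 0.0926, and without a filter (0.164).

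Psmd6 (chromosome 14, 14944698 to 14953498), another lid subunit, had 381, 412 and 406 count equivalents in F0 C57BL/6J and 486, 547 and 610 in F0 Cast/EiJ. All Cast/EiJ libraries were higher, by 1.36-fold on average (log2 0.45 ± 0.10 SE, limma adjusted p = 0.00915), a call lost without a filter (0.0601). Its alleles could not be told apart with the same precision, as described further on.

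**Figure D2:**
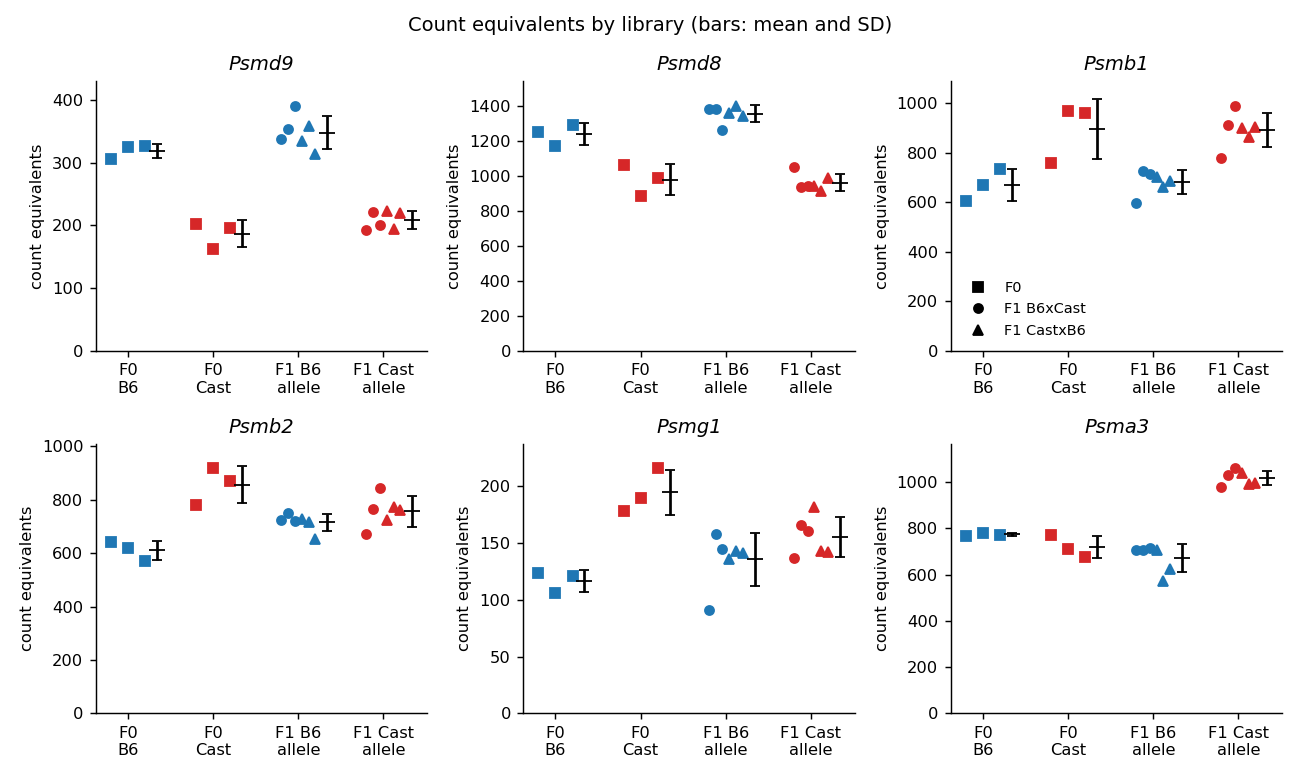
Count equivalents of 6 members in each library, for F0 C57BL/6J (B6) and F0 Cast/EiJ (squares) and for both alleles of the F1 libraries (circles, F1 B6xCast, and triangles, F1 CastxB6), with mean and SD as bars; each axis starts at 0. In count equivalents the strain gap recurs between the alleles for Psmd9, Psmd8 and Psmb1 and is smaller there for Psmb2 and Psmg1. For Psma3 the alleles separate whereas the strains overlap.

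Within the F1 libraries, 12 of 44 members showed an allelic difference. Among all 13414 genes tested 47.0% were called, against 27.3% of the members. The median size of the difference on the log2 scale was 0.14 for the members and 0.20 over all genes. In count equivalents the calls were split evenly, 6 with the Cast/EiJ allele higher and 6 with the C57BL/6J allele higher (23.5% of all genes in either direction). They fell in 2 alpha subunits, 2 beta subunits, 1 ATPase, 3 non-ATPase subunits, both 19S chaperones, the inhibitor and Psmc3ip. Psma5, counted as higher from Cast/EiJ, was lower from it in unique hits (edgeR log2 -1.26). The calls in unique hits were not split evenly, as given further on. No activator or core chaperone was called. Summed over the 31 core and 19S subunits, the Cast/EiJ alleles held 48.1% to 52.1% of the count equivalents and 49.6% to 50.2% of the unique hits of the 6 hybrid libraries.

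In count equivalents Psmd9 again had the largest decrease, although in unique hits those of Psma5 (edgeR log2 -1.26) and Psmb3 (-1.05) were larger. The C57BL/6J allele of Psmd9 had 314 to 391 count equivalents (median 345) and its Cast/EiJ allele 193 to 223 (median 210) over the 6 F1 libraries. The alleles did not overlap, and the Cast/EiJ allele was 1.66-fold lower (log2 -0.73 ± 0.07 SE, limma adjusted p = 1.1e-07). In Psmd8 the C57BL/6J allele had 1260 to 1400 count equivalents (median 1370) and the Cast/EiJ allele 912 to 1050 (median 941.5), 1.41-fold lower (log2 -0.49 ± 0.05 SE, limma adjusted p = 1.81e-07) and without overlap. Psmb1 was the beta subunit called with a higher Cast/EiJ allele, which had 780 to 991 count equivalents (median 903.5) against 597 to 727 (median 695). The gap was 1.31-fold (log2 0.39 ± 0.07 SE, limma adjusted p = 0.000213), and the alleles did not overlap. For these 3 genes the trans difference did not pass the test, with log2 values of -0.04 for Psmd9, 0.15 for Psmd8 and 0.02 for Psmb1.

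The catalytic subunit Psmb6 (chromosome 11, 70338869 to 70341360), which carries the caspase-like site, had a C57BL/6J allele at 714 to 1020 count equivalents (median 959) and a Cast/EiJ allele at 608 to 789 (median 728). The C57BL/6J allele was higher in 6 of 6 libraries, by 1.29-fold (log2 of Cast/EiJ over C57BL/6J -0.36 ± 0.08 SE, limma adjusted p = 0.00137). Between the F0 strains Psmb6 had 750, 851 and 901 count equivalents in C57BL/6J and 656, 814 and 813 in Cast/EiJ, which overlapped (log2 -0.14 ± 0.11 SE, limma adjusted p = 0.37). Psmd5 (chromosome 2, 34707608 to 34726459), which caps an ATPase during assembly, had 408 to 520 count equivalents (median 489.5) from the C57BL/6J allele and 340 to 438 (median 389.5) from the Cast/EiJ allele. The direction held in 6 of 6 libraries (log2 -0.30 ± 0.06 SE, limma adjusted p = 0.000341).

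The other catalytic subunits passed neither test in count equivalents. Psmb5, which carries the chymotrypsin-like site, had 542, 576 and 623 count equivalents in F0 C57BL/6J, 544, 631 and 673 in F0 Cast/EiJ, 466 to 674 (median 598.5) from the F1 C57BL/6J allele and 493 to 662 (median 632) from the Cast/EiJ allele. Its log2 differences were 0.08 ± 0.10 SE between strains and 0.07 ± 0.08 SE between alleles. Psmb7, which carries the trypsin-like site, had 793, 808 and 994 count equivalents in F0 C57BL/6J and 838, 792 and 948 in F0 Cast/EiJ. Its Cast/EiJ allele had 901 to 1070 (median 1030) and its C57BL/6J allele 781 to 971 (median 932.5). The Cast/EiJ allele was higher in 6 of 6 libraries, yet the difference did not pass the test (log2 0.15 ± 0.06 SE, limma adjusted p = 0.0728). On the deposited log expression the allelic difference of Psmb7 was 0.33 and called (limma adjusted p = 7.57e-05; range over the alternatives 7.57e-05 to 0.439), and in FPKM its alleles did not overlap, at 55.3 to 63.7 from Cast/EiJ and 39.6 to 49.3 from C57BL/6J. Its trans difference, -0.15 ± 0.12 SE, was called under 1 of 22 alternatives (adjusted p 0.00751 to 0.841). Psmb7 overlaps Nek6 on the opposite strand, and the libraries did not keep the strand.

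The allelic calls of Psmf1, Psmc1 and Psmd12 were the smallest in size. Those of Psma3, Psma5 and Psmd2 are given with the trans differences. Psmf1, which inhibits the core, had 480 to 604 count equivalents (median 566.5) from the Cast/EiJ allele and 450 to 497 (median 489) from the C57BL/6J allele (log2 0.20 ± 0.05 SE, limma adjusted p = 0.00148). In F1 B6xCast alone its log2 difference was 0.10 and not called (limma adjusted p = 0.269), and in F1 CastxB6 alone it was 0.31. With DESeq2 on unique hits it was not called either (adjusted p = 0.0847). The ATPase Psmc1 had 1080 to 1380 (median 1220) against 890 to 1170 (median 1085), with log2 0.21 ± 0.07 SE and limma adjusted p = 0.0291, and the lid subunit Psmd12 had 532 to 661 (median 627.5) against 511 to 592 (median 554), with log2 0.16 ± 0.06 SE and limma adjusted p = 0.0254. Both were higher from Cast/EiJ in 6 of 6 libraries with overlapping ranges. The call of Psmc1 was lost without F1 B6xCast replicate 3 (limma adjusted p = 0.0698) or F1 CastxB6 replicate 1 (0.158), and that of Psmd12 without replicate 2 or 3 of either cross (limma adjusted p = 0.0678 to 0.0929). In unique hits Psmc1 was not called by edgeR (adjusted p = 0.11) or DESeq2 (0.127), nor Psmd12 by DESeq2 (0.0801), and neither was called in 1 cross alone (limma adjusted p = 0.12 to 0.144).

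Psmc3ip, not a proteasome gene, had 34.4 to 53.0 count equivalents (median 49.3) from the Cast/EiJ allele and 38.7 to 80.3 (median 63.75) from the C57BL/6J allele (log2 -0.44 ± 0.16 SE, limma adjusted p = 0.034). This call was lost without F1 B6xCast replicate 2 or 3 or F1 CastxB6 replicate 1 or 2 (limma adjusted p = 0.0582 to 0.161), in 1 cross alone (0.117 and 0.204), on the deposited log expression (0.0815) and in unique hits (edgeR 0.166, DESeq2 0.274). Psmc3ip also overlaps Mlx on the opposite strand. Over the 44 members, the allelic difference had the same sign in both crosses, which share no library, for 33 members (75.0%), beside 80.5% of all genes tested.

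**Figure D3:**
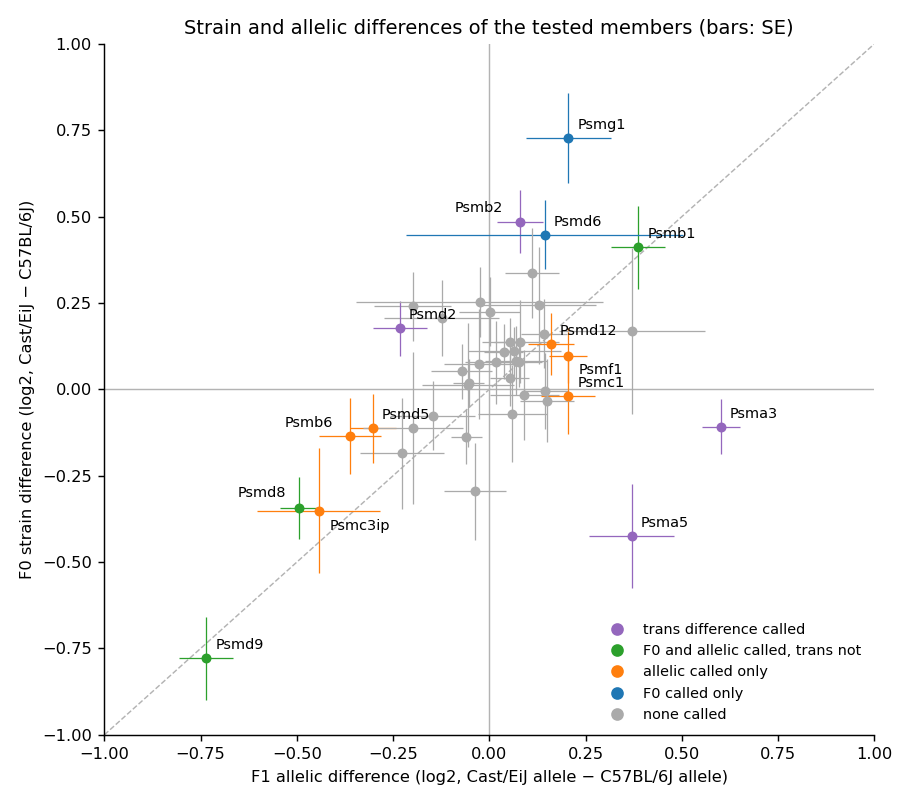
The F0 strain difference (vertical) against the F1 allelic difference (horizontal) of the 44 tested members, both as log2 of Cast/EiJ over C57BL/6J with SE bars; the dashed line marks equal values, and colours mark which comparisons passed an adjusted p under 0.05. Psmd9, Psmd8 and Psmb1 lie near the line, whereas Psma3, Psma5, Psmb2 and Psmd2, the 4 members with a called trans difference, lie off it.

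A trans difference was called in 4 of 44 members (9.09%), beside 14% of all 13414 genes tested. It was positive for Psmb2 and Psmd2 (5.64% of all genes) and negative for Psma3 and Psma5 (8.31%). In unique hits the trans difference of Psma5 was positive (edgeR log2 0.68), as were all trans calls there except that of Psma3. The median size on the log2 scale was 0.11 for the members and 0.20 over all genes. Psmb2 was called between the F0 strains but not between the alleles. Its Cast/EiJ allele had 670 to 844 count equivalents (median 764.5) and its C57BL/6J allele 653 to 749 (median 724), with overlapping ranges (log2 0.08 ± 0.06 SE, limma adjusted p = 0.261). The trans difference was 0.41 ± 0.10 SE on the log2 scale (limma adjusted p = 0.0118), and it was called under each of the 22 alternatives run for it. Psmg1 had a trans difference of similar size that did not pass the test (log2 0.52 ± 0.20 SE, limma adjusted p = 0.0936), and its alleles overlapped, at 137 to 182 (median 152) and 91.1 to 158 count equivalents (median 142).

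Psmd2 (chromosome 16, 20651725 to 20663487) had cis and trans differences of opposite direction. F0 C57BL/6J had 2060, 2320 and 2400 count equivalents and F0 Cast/EiJ 2390, 2560 and 2710, a log2 difference of 0.18 ± 0.08 SE that did not pass the test. In F1 the C57BL/6J allele was the higher one in 6 of 6 libraries, with 2340 to 3060 count equivalents (median 2650) against 1880 to 2550 (median 2370). The allelic difference was -0.23 ± 0.07 SE on the log2 scale (limma adjusted p = 0.0091) and the trans difference 0.41 ± 0.12 SE (limma adjusted p = 0.0342). The trans call was lost in 6 of the 12 fits that left out a library, those without C57BL/6J replicate 1 or 2, Cast/EiJ replicate 2 or 3, or F1 CastxB6 replicate 1 or 3 (limma adjusted p = 0.0563 to 0.0949). The allelic call was lost without F1 CastxB6 replicate 1 (limma adjusted p = 0.0671), and both were lost in F1 B6xCast alone (0.277 for the allelic and 0.163 for the trans difference). The alleles of Psmd2 had 206 unique hits per F1 library, beside 1827 unique hits per F0 library.

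Psma3 and Psma5, both alpha subunits, had the other called trans differences, and both opposed the allelic difference. Psma3 (chromosome 12, 72075608 to 72097334) had 769, 782 and 772 count equivalents in F0 C57BL/6J and 772, 710 and 677 in F0 Cast/EiJ, which overlapped (log2 -0.11 ± 0.08 SE, limma adjusted p = 0.309). In unique hits the strain difference of Psma3 was -0.29 and called (edgeR adjusted p = 0.0232). Its Cast/EiJ allele had 981 to 1060 (median 1013) and its C57BL/6J allele 571 to 714 (median 706), without overlap. The allelic difference was 0.60 ± 0.05 SE on the log2 scale (limma adjusted p = 1.44e-08) and the trans difference -0.71 ± 0.08 SE (limma adjusted p = 2.42e-05). Psma5 (chromosome 3, 108059844 to 108082892) had 325, 393 and 451 count equivalents in F0 C57BL/6J and 240, 318 and 311 in F0 Cast/EiJ, without overlap, although the difference did not pass the test (log2 -0.43 ± 0.15 SE, limma adjusted p = 0.0578). The strain difference of Psma5 was 0.17 (limma adjusted p = 0.392) with the count equivalents of its copies, described further on, summed in, and -0.575 and called in unique hits (edgeR adjusted p = 0.0162). Its Cast/EiJ allele was nevertheless the higher one in 6 of 6 F1 libraries, with 360 to 500 (median 464) against 250 to 420 (median 349). The allelic difference was 0.37 ± 0.11 SE (limma adjusted p = 0.012) and the trans difference -0.80 ± 0.20 SE (limma adjusted p = 0.0149).

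The allelic call of Psma5 was lost without F1 CastxB6 replicate 1 (limma adjusted p = 0.0503), and its trans call without C57BL/6J replicate 3 (0.0538) or Cast/EiJ replicate 1 (0.053). In F1 B6xCast alone neither was called (limma adjusted p = 0.209 and 0.0668). Both also turned direction in unique hits, as given with the copies.

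Cis and trans estimated from the same F1 libraries share the allelic value with opposite signs, which by construction makes them oppose each other. They were therefore also set side by side with no shared library. With cis from F1 B6xCast and trans from the F0 strains and F1 CastxB6, the signs were opposite for 24 of 44 members (54.5%) and for 52.6% of all genes tested. With the crosses exchanged they were opposite for 26 members (59.1%) and 52.9% of all genes. The members' shares were close to the background.

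Some members share long stretches of sequence with other annotated genes, so reads had to be divided between them. In NCBI37/mm9, 13 of the 48 records had another gene whose transcript aligned over at least 200 bases at 95% identity, genes that overlap the member included. Psma3 is identical over 685 bases to Gm13835, a pseudogene on chromosome 6. Psma5 is 98.6% identical over 961 bases to Gm8394, annotated as protein coding on chromosome 10, and Psmb3 is 97.1% identical over 618 bases to Gm6467, a pseudogene on chromosome 16. For these pairs, 40 transcript bases of the member and the same stretch of the copy show how little tells them apart. Capitals mark the bases that differ. The coordinates are Psma3 chr12:72087861-72087900 (plus strand) and Gm13835 chr6:31092292-31092331 (minus strand), Psma5 chr3:108070726-108070765 and Gm8394 chr10:84776620-84776659 (plus strand), and Psmb3 chr11:97565156-97565195 and Gm6467 chr16:21896636-21896675 (plus strand).
Psma3: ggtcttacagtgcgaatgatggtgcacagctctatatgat
Gm13835: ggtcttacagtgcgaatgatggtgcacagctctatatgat
Psma5: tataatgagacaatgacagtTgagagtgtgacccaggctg
Gm8394: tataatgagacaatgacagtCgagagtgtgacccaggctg
Psmb3: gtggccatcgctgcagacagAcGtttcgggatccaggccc
Gm6467: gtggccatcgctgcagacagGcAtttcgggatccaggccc

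The copies took up reads unequally between strains and alleles. A730017L22Rik, which aligned to Psmd11 over 1501 bases, had a mean of 227.7 count equivalents in F0 C57BL/6J and 0.26 in F0 Cast/EiJ. With copies summed in, the strain difference of Psmd11 was -0.20 and called (limma adjusted p = 0.0499). Without them it was not called, at means of 943 and 1019 count equivalents in the same order. Gm13835 had a mean of 189.7 count equivalents in F0 C57BL/6J, 143.3 in F0 Cast/EiJ, 244.2 from the F1 C57BL/6J allele and 4.21 from the F1 Cast/EiJ allele, with no unique hit in the F0 libraries. With copies summed into their member, the allelic difference of Psma3 was 0.16 (limma adjusted p = 0.00501) in place of 0.60 on the log2 scale, and the trans difference -0.32 (limma adjusted p = 0.0101) in place of -0.71. Over all alternatives the allelic difference ranged from 0.16 to 1.33 (adjusted p 1.77e-80 to 0.00501) and the trans difference from -1.63 to -0.32 (adjusted p 1.34e-11 to 0.0101). Psma3 also overlaps the lincRNA 3110056K07Rik on the opposite strand, which had a mean of 222 count equivalents in F0.

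Gm8394 had 130 to 168 count equivalents in the F0 Cast/EiJ libraries and under 0.1 in all others. With Gm8394 summed in, Psma5 kept an allelic difference of 0.37 on the log2 scale (limma adjusted p = 0.011), and its trans difference fell to -0.20 and was no longer called (limma adjusted p = 0.562; range over the alternatives 0.0031 to 0.562). In the unique hits, Psma5 had 956 from the C57BL/6J and 389 from the Cast/EiJ allele over the 6 F1 libraries. That is the opposite direction (edgeR log2 -1.26, adjusted p = 1.4e-07; range over the alternatives 1.69e-18 to 0.209), and the trans difference in unique hits was 0.68 (edgeR adjusted p = 0.0438). The direction of the allelic and trans differences of Psma5 depended on the measure, and that of its strain difference on the copies.

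For most members the measures gave like allelic differences. The edgeR log2 difference in unique hits was within 0.1 of the limma value in count equivalents for 34 of the 44 members, with a median gap of 0.017. Psmd9 had -0.73 in both, Psmd8 -0.49 in both and Psmb1 0.39 in both. The gap exceeded 0.5 for 4 members, Psma3, Psma5, Psmb3 and Psmd4. EdgeR on unique hits called 8 of 44 members between the strains, beside 37.1% of all genes tested, 13 between the alleles, beside 42.7%, and 8 for a trans difference, beside 14.1%. Psmb3 had 1029 unique hits from the C57BL/6J and 481 from the Cast/EiJ allele (edgeR log2 -1.05, adjusted p = 2.14e-08; range over the alternatives 3.51e-17 to 0.871), whereas its count equivalents did not differ by the test (log2 0.08 ± 0.10 SE).

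Other members had few reads that told the alleles apart. Psmd4 had 34.5 allele-specific unique hits per F1 library, Psmd6 37.0, Psmb10 31.2, Psmd11 28.8 and Psmc2 51.5, beside 1121 unique hits per F0 library for Psmd4. The log2 ratio of the alleles of Psmd4 ran from -2.01 to 1.93 over the 6 libraries, and that of Psmd6 from -1.15 to 2.55. None of these 5 members was called between the alleles in count equivalents, and the part of depth in this was not tested. Psmd4 was called in unique hits (130 from C57BL/6J and 77 from Cast/EiJ, edgeR log2 -0.74, adjusted p = 0.00358; range over the alternatives 0.00358 to 0.961).

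**Figure D4:**
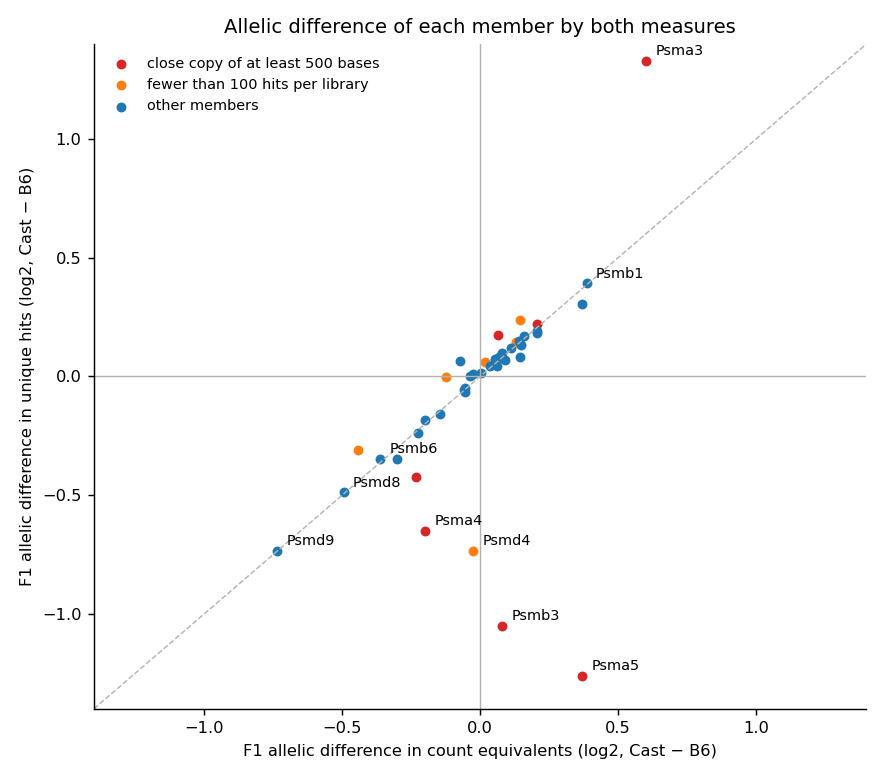
The F1 allelic difference of the 44 tested members in allele-specific unique hits (edgeR, vertical) against that in count equivalents (limma, horizontal), both as log2 of Cast/EiJ over C57BL/6J; the dashed line marks equal values, and colours mark members with a close copy of at least 500 bases and, among the rest, those with fewer than 100 hits per F1 library. Most members lie on the line; Psma3, Psma5, Psmb3 and Psmd4 lie over 0.5 away from it.

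No member showed a parent-of-origin difference. By limma, 0 of 44 members were called, beside 0.492% of all genes tested, and 3 (Psmd13, Psme2 and Psmf1) had an unadjusted p under 0.05. EdgeR on unique hits also called 0, beside 0.291% of all genes, and DESeq2 called 0, with 1 member (Psma3) under an unadjusted 0.05 in each. With the deposited log expression in place of count equivalents, limma called Psme2 (adjusted p = 0.0383; range over the alternatives up to 1). The median size of the difference was 0.041 on the log2 scale, against 0.057 over all genes.

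The total in hybrids departed from the parental mean for 2 of 44 members (4.55%), beside 12.2% of all 14710 genes tested, with 1 higher (7.19% of all genes) and 1 lower (5.03%). Psma3 had 782 to 887 count equivalents per F1 library as the mean of both alleles, above the parental mean by 0.18 ± 0.04 SE on the log2 scale (limma adjusted p = 0.0179). The call of Psma3 was lost without F1 CastxB6 replicate 1 (limma adjusted p = 0.0507), with its copies summed in (0.186) and on the deposited log expression (0.116). Psmd6 had 259, 255.5 and 242 count equivalents in F1 B6xCast and 187.5, 341.95 and 232 in F1 CastxB6, all below the 381 to 610 of the 6 F0 libraries (log2 -0.90 ± 0.12 SE, limma adjusted p = 0.000289). On the deposited log expression the decrease of Psmd6 was -0.35 (limma adjusted p = 0.00623; range over the alternatives 5.43e-06 to 0.00623). In FPKM, Psmd6 had 14.2 to 18.3 in F1, 17.2 to 18.8 in F0 C57BL/6J and 22.8 to 27.7 in F0 Cast/EiJ. F1 libraries also differed from F0 in their lanes and their reference transcripts, which cannot be told apart from the hybrid state.

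Of the tissue-restricted core subunits, Psmb10 was measurable and the others were near 0. Psmb10, the immunoproteasome counterpart of Psmb7, had 62.5, 63.1 and 57.9 count equivalents in F0 C57BL/6J and 65.4, 67.3 and 86.7 in F0 Cast/EiJ, and a median level of 2.93 FPKM. The groups did not overlap, yet the difference did not pass the test (log2 0.24 ± 0.17 SE, limma adjusted p = 0.31). Its alleles overlapped, with 53.1 to 89.5 (median 69.6) from Cast/EiJ and 46.7 to 81.8 (median 61.55) from C57BL/6J. Psmb11 had at most 3.81 count equivalents and Psma8 at most 1.16 in any column.

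Promoters were searched for the core letters of the antioxidant response element, the site bound by Nfe2l1 and Nfe2l2, transcription factors known to raise proteasome genes. RefSeq promoter windows (GRCm38.p6, 250 bases before to 50 after the start) were matched for 38 of the 47 symbols, the others being Psma8, Psmb1, Psmb2, Psmb7, Psmc3, Psmd3, Psmd7, Psme2b-ps and Psmg2. The letters TGACNNNGC, searched on both strands, occurred in 6 of the 38 members and in 12.4% of all 32851 windows. A member counted if any of its windows matched, whereas the share is over single windows, so these were not compared. The 4 matches within 50 bases of the start are printed on the gene's strand with the match in capitals, because they include Psmb6 and Psmd9, whose alleles differed, and Psmb5 and Psme4, whose alleles did not pass the test. They lie at chr14:54618018-54618057 (Psmb5, minus strand), chr11:70525333-70525372 (Psmb6, plus strand), chr5:123228144-123228183 (Psmd9, plus strand) and chr11:30771753-30771792 (Psme4, plus strand, read as the reverse complement).
Psmb5: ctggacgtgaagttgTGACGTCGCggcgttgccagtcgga
Psmb6: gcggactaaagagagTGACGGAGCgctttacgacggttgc
Psmd9: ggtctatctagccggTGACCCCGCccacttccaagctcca
Psme4: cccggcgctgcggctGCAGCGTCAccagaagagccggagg

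The other matches were in Psmc6 and Psmd12, 227 and 247 bases before the start. These are C57BL/6J reference sequences, and the Cast/EiJ sequence was not used here. Of the other letters searched on both strands and counted in the same way, CCAAT occurred in 13 of 38 members (37.4% of all windows), GGGCGG in 21 (35.7%), TATAAA in 3 (13.6%) and the palindromic site of nuclear respiratory factor in 2, Psma2 and Psmg1 (0.971%). Matches of different motifs may overlap. Nfe2l1 itself had a slightly lower Cast/EiJ allele (log2 -0.12 ± 0.04 SE, limma adjusted p = 0.0205), and Nfe2l2 did not pass the test between alleles (log2 0.13 ± 0.07 SE).

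Genes that work with the proteasome were read from a list of 28, of which Paaf1 had no record under that symbol. Between the F0 strains 3 of 26 tested were higher in Cast/EiJ and 2 lower (19.2%, against 33.8% of all genes), and between the alleles 3 of 25 were higher and 8 lower (44.0%, against 47.0%). Pomp, which matures the core, had 508, 479 and 586 count equivalents in F0 C57BL/6J and 536, 558 and 636 in F0 Cast/EiJ, which overlapped. In F1 its C57BL/6J allele had 587 to 757 (median 684.5) and its Cast/EiJ allele 367 to 480 (median 446). Its allelic difference was -0.65 ± 0.08 SE on the log2 scale (limma adjusted p = 2.06e-06) and its trans difference 0.78 ± 0.14 SE (limma adjusted p = 0.000938). Zfand5, a proteasome activator, showed the same arrangement, with 942 to 1080 count equivalents in F0 C57BL/6J, 1090 to 1150 in F0 Cast/EiJ, 1270 to 1410 from the C57BL/6J allele and 660 to 987 from the Cast/EiJ allele. Its allelic difference was -0.62 ± 0.08 SE (limma adjusted p = 6.1e-06) and its trans difference 0.76 ± 0.14 SE (limma adjusted p = 0.00193).

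Usp14, a deubiquitinase of the 19S particle, was higher from Cast/EiJ both ways, with 589 to 677 count equivalents in F0 C57BL/6J, 874 to 988 in F0 Cast/EiJ, and alleles at 565 to 694 and 723 to 864. Its strain difference was 0.59 ± 0.09 SE on the log2 scale (limma adjusted p = 0.000971) and its allelic difference 0.33 ± 0.06 SE (limma adjusted p = 0.000204). Vcp, the segregase that delivers substrates to the proteasome, had 4170 to 5070 count equivalents in F0 C57BL/6J and 2240 to 2410 in F0 Cast/EiJ, a log2 difference of -0.99 ± 0.08 SE (limma adjusted p = 2.99e-05), while its alleles had 3960 to 4990 and 3730 to 4400. The trans difference of Vcp was -0.85 ± 0.10 SE (limma adjusted p = 2.22e-05) in count equivalents and -0.15 (edgeR adjusted p = 0.354) in unique hits, where its allelic difference was -0.70 (edgeR adjusted p = 1.41e-09). Close copies of these genes were not searched for.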

How the data were processed

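Retinal mRNA of 12 libraries was read as pairs of 101 bp on a HiSeq 2000. Per the labels and the study's methods, the authors trimmed reads with Trim Galore, aligned them with Bowtie to Ensembl 67 transcripts (NCBI37/mm9, strain-specific for each allele) and estimated expression with MMSEQ. They deposited normalized count equivalents (a signal, not whole numbers, with each F1 allele on the scale of a whole library), the natural log (ln) of FPKM-like expression, and unique hits, the only whole-number counts; 54 per-sample columns (posterior SDs and the authors' model comparisons) were not used. The F1 total is the mean of both alleles.

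Strain, allelic, trans and parent-of-origin differences and the F1 total were tested with limma (variance trend) on log2(count equivalents + 1), fitted over all autosomal genes that passed a filter (at least 10 count equivalents in at least 3 libraries, or, for alleles, 10 unique hits in the average hybrid library), both alleles of a library being treated as correlated (consensus 0.135) and Benjamini-Hochberg adjustment; calls are at an adjusted p under 0.05. Copies were found with BLAST among transcripts of the GENCODE M1 annotation. The members and lists were chosen with earlier results of these data known. Values per library are given for up to 6 called members in each direction of the F0, allelic and trans comparisons, those called for parent of origin or F1 total, the catalytic and the tissue-restricted subunits, and up to 6 called pathway genes, some of which are not reported here; Psmb3, Psmd4, Psmd11, Psmc2, Psme2, Nfe2l1, Nfe2l2 and the copies were named after their values were seen. Replicates are pools of mice, with the same numbers used in each group. Alternatives were another pseudocount, filter, normalization, tool and measure, a replicate block, each cross alone and each library left out; adding copies was chosen after seeing the data. The fits were tested on simulated data. R 4.3.3, limma 3.58.1, edgeR 4.0.16, DESeq2 1.42.0, statmod 1.5.0.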

Additional observations from a re-analysis of the deposited data

Results flagged for a closer look

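The difference between the strains was not the same as that between the alleles for 4 members, tested as the trans difference in limma: Psma3 (log2 -0.71), Psma5 (log2 -0.80), Psmb2 (log2 0.41) and Psmd2 (log2 0.41). Psma3 and Psma5 share sequence with copies that held count equivalents unequally. With the copies added, the trans difference of Psma3 was -0.32 and still called, and that of Psma5 was -0.20 and not called. No allelic ratio of a called member had a library that stood apart from the other 5 by Dixon's criterion.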

How the results depend on the processing

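The number of members called moved by more than 1.5 times under these settings. Between the F0 strains, 6 calls became 3 without a filter and 14 with the replicate block. Between the alleles, 12 became 6 in F1 B6xCast alone. For trans, 4 became 8 with edgeR on unique hits and 2 in F1 B6xCast alone. For parent of origin, 0 became 1 with the deposited log expression, and for the F1 total, 2 became 1 with the copies added. Leaving out each library in turn gave 4 to 8 strain calls, 8 to 14 allelic calls, 3 to 6 trans calls, 0 parent-of-origin calls and 1 to 4 calls for the F1 total (4 without F1 B6xCast replicate 1, 1 without F1 CastxB6 replicate 1). Psma5 reversed in unique hits, to an allelic log2 of -1.26 with edgeR and -1.27 with DESeq2 and a trans log2 of 0.68 with edgeR. The causes were not tested. Of the other values recomputed for single members, 564 kept their side of the threshold, 51 lost the call and 3 gained one. The 564 include uncalled values whose sign changed. One was the allelic difference of Psmb10, which ran from -0.04 to 0.31 with libraries left out.

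The groups share only replicate numbers: deviations of same-numbered libraries correlated between -0.11 and 0.30, and the replicate block gave 14 strain calls, 14 allelic, 4 trans and 2 F1-total calls. EdgeR for the F1 total was not run, since F1 unique hits need a polymorphism and their level cannot be set against that of F0. The trans values in unique hits set an F0 ratio against an F1 ratio. The F1 ratio rests on polymorphic stretches alone, which limits these values. Psmd4, Psmd6, Psmd11, Psmb10 and Psmc2 had the fewest hits that told alleles apart among the members tested.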
